A study of Mus musculus with 6 samples.

Results

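The core clock genes described here are *Per1*, *Per2*, *Per3*, *Cry1*, *Cry2*, *Arntl* (which encodes BMAL1), *Clock* and *Npas2*, 8 of the 53715 genes in a count table from mouse cerebellum. They were chosen by name, through their Ensembl gene identifiers, and not by a cutoff on their values. Earlier results of these data, among them a reported fall of *Per1*, were known when they were chosen. All 8 passed the filter on low counts. The libraries came from cerebella of male C57BL/6 mice aged 4 weeks, 3 control and 3 *Slc39a8*-NSKO, and were made to ask how loss of the metal transporter SLC39A8 from neurons alters the cerebellar transcriptome. In *Slc39a8*-NSKO mice a floxed *Slc39a8* gene is removed by Cre recombinase under the synapsin I promoter, which is active in neurons, so that glia, vessels and other cells keep the gene. The sample labels call the genotypes WT and slc39a8-KO, while the paper names floxed mice as controls, and no other allele or treatment is given for either group. The time of day at which tissue was taken is not given in the sources used here, so that its part in the values below was not tested. The methods count the 3 mice of a genotype as biological replicates, although a figure legend speaks of technical triplicates. If the latter held, the p values below would describe technical spread.

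The circadian clock is a feedback loop of transcription that runs in most cells, including neurons and glia of the cerebellum. BMAL1, paired with CLOCK or its paralog NPAS2, binds E-boxes and switches on the *Per* and *Cry* genes, and the PER and CRY proteins later return to the nucleus and repress that pair. *Per1* is also switched on within minutes by cAMP and calcium through CREB, which binds cAMP-responsive elements, and by glucocorticoids through their receptor.

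Counts on genes ranged from 14431260 to 20844267 per mouse. *Slc39a8*, the targeted gene, was counted 99, 46 and 44 times in the controls and 38, 40 and 41 times in the NSKO mice. Every NSKO value lay below every control value, also when scaled to library size, as for 5.26% of all genes tested. The log2 fold change was −0.83 (SE 0.237), which did not pass the threshold (adjusted p = 0.534 by edgeR's quasi-likelihood test, Benjamini-Hochberg adjustment over 16330 genes). Without control mouse 1, the highest of the 6, it was −0.56. Markers of granule cells (summed 4553 to 4718 CPM, counts scaled to library size, in control and 4539 to 4941 in NSKO mice) and of Purkinje cells (6634 to 7495 and 7223 to 7799) were abundant, and none of these 12 genes was at or near 0. Of 6 markers of the suprachiasmatic nucleus, the brain's master clock, *Vip*, *Nms*, *Prok2* and *Six6* had at most 3 counts in any mouse and *Avp* at most 5, while *Rgs16* was at a mean of 18.7 CPM in control and 19.9 CPM in NSKO mice. Of 6 pineal markers, *Asmt*, *Crx* and *Isl2* had at most 3 counts in any mouse, *Aanat* at most 4 and *Tph1* at most 6, while *Rom1* was at a mean of 10.6 and 10.9 CPM.

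*Per1* was the only core clock gene past the threshold, an adjusted p below 0.05. Its level was 147.0, 180.7 and 203.2 CPM in control mice 1 to 3 and 116.7, 106.6 and 128.0 CPM in NSKO mice 1 to 3. The highest NSKO mouse lay below the lowest control mouse, and the NSKO mean of 117 ± 10.7 CPM (SD, n = 3) was 66.2% of the control mean of 177 ± 28.3 CPM (SD, n = 3). The log2 fold change was −0.59 (SE 0.0986, 95% interval −0.81 to −0.38), with an adjusted p of 0.0435 by edgeR's quasi-likelihood test, rank 14 of the 16330 genes tested. Thus 1 of 8 core clock genes passed the threshold, against 0.098% of all genes tested. It was among the 0.0735% that passed with a lower level in NSKO mice. The paper had already reported *Per1* as lower in these samples, and also by qPCR in a separate set of RNA samples. The count of 1 is therefore not independent evidence about the core clock genes as a set. The count of *Per1* was between 2076 and 3163 per mouse, so that counting error was small beside the spread between mice.

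**Figure D1:**
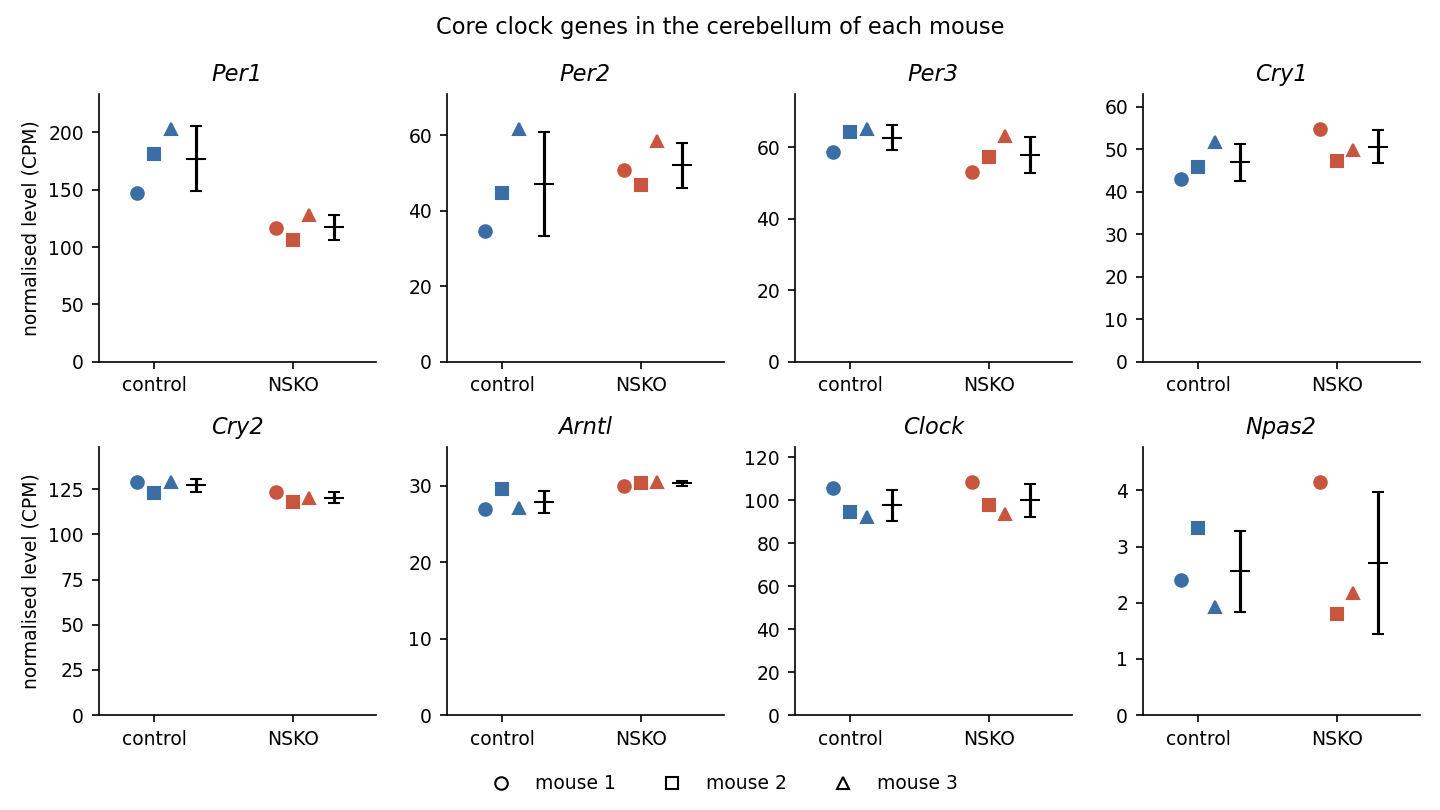
Level of each core clock gene in CPM (y axis, from 0, its own scale for each gene) in every control (blue) and NSKO (red) mouse, with the group mean and SD beside the points (n = 3). The 3 NSKO mice lie below the 3 control mice for Per1 and above them for Arntl, and the groups overlap for the other 6 genes.

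The adjusted p of *Per1* lay close to the threshold and passed it in 1 of the 6 fits that left out a mouse. It was 0.000743 without control mouse 1, but 0.0726 without control mouse 2, 0.152 without control mouse 3, 0.154 without NSKO mouse 1, 0.248 without NSKO mouse 2 and 0.0577 without NSKO mouse 3. The fold change stayed negative in all 6, between −0.71 and −0.48 on the log2 scale. With limma-voom in place of edgeR the adjusted p was 0.0723, and with DESeq2 it was 1.98e-06.

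**Figure D2:**
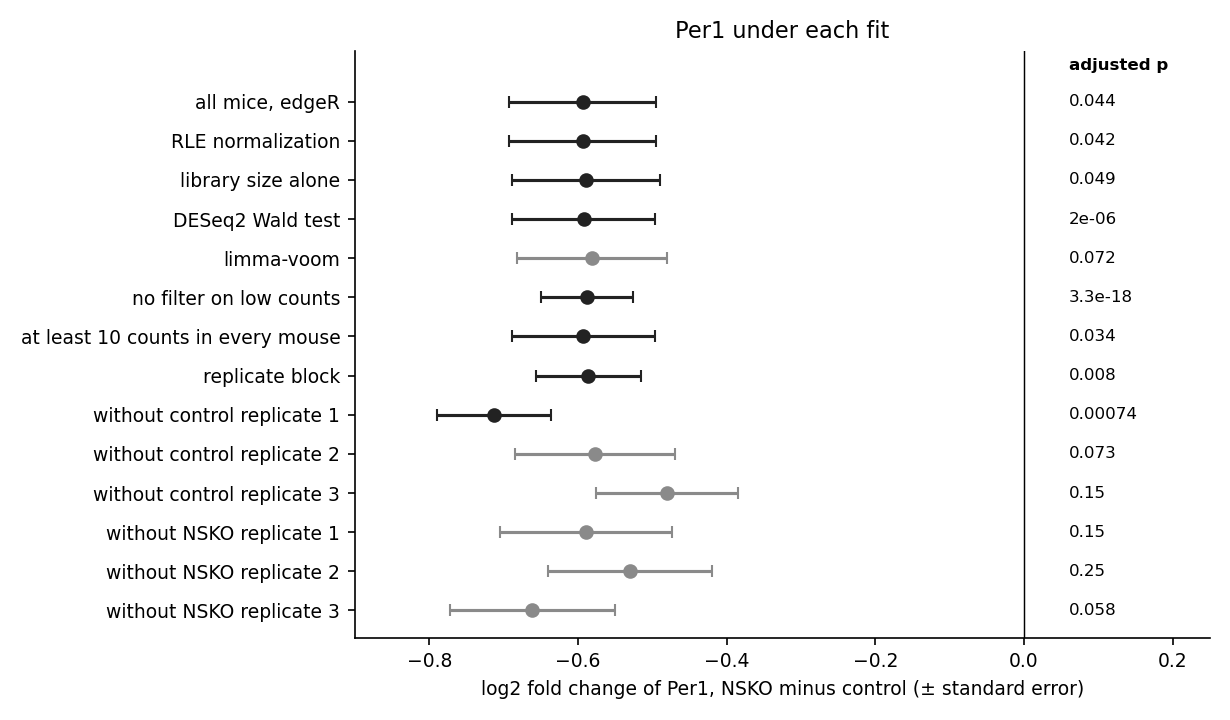
Log2 fold change of Per1 (x axis, NSKO minus control, bars ± SE) under each fit (y axis), with the Benjamini-Hochberg adjusted p at the right and fits below 0.05 in black. Every fold change lies below 0, while 6 of the 13 alternatives have an adjusted p above 0.05.

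Neither *Per2* nor *Per3* passed the threshold. *Per2*, which encodes a PER protein central to rhythm in mice, was at 34.7, 44.6 and 61.7 CPM in control mice 1 to 3 and at 50.8, 46.8 and 58.5 CPM in NSKO mice 1 to 3. The groups overlapped fully, all NSKO values lying inside the control range, and the log2 fold change was 0.16 (SE 0.153, 95% interval −0.17 to 0.48, edgeR adjusted p = 0.994). Among control mice *Per2* had the widest relative spread of the 8 genes, its highest value being 1.78 times its lowest. *Per3*, the least essential of the PER paralogs for rhythm in mice, was at 58.7, 64.3 and 65.3 CPM in control and 53.1, 57.3 and 63.2 CPM in NSKO mice. These ranges overlapped, with a log2 fold change of −0.12 (SE 0.0736, 95% interval −0.27 to 0.04, edgeR adjusted p = 0.993). Reads of *Per3* may be shared with *Camta1*, which overlaps it on the same strand. Expected counts can be fractions, and those of *Per3* were whole numbers in every mouse. *Clock* (with *Gm43658* and *Ube2n-ps1*) and *Npas2* (with *Gm3617*) also have overlaps on the same strand. Sharing of reads was not tested.

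*Per1* was also set against its paralogs within each mouse, to ask whether its genotype difference differed from theirs. The log2 ratio of *Per1* to *Per2* counts was 2.08, 2.02 and 1.72 in control mice 1 to 3 and 1.20, 1.19 and 1.13 in NSKO mice 1 to 3. The groups did not overlap, the NSKO mice lay within a narrow band, and the difference in means was −0.77. The log2 ratio of *Per1* to *Per3* was 1.32, 1.49 and 1.64 in control and 1.14, 0.895 and 1.02 in NSKO mice, a difference of −0.47 with no overlap. *Per1* alone already separated the genotypes and enters both ratios, so that their separation is not independent of its own. How often ratios of other genes separate was not computed. Each ratio gave p = 0.1 in an exact two-sided permutation test over the mice, which is the smallest p that 3 mice against 3 allow, and 0.1 after adjustment over both ratios. Leaving out each mouse in turn gave differences of −0.88 to −0.70 for *Per2* and −0.55 to −0.39 for *Per3*.

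**Figure D3:**
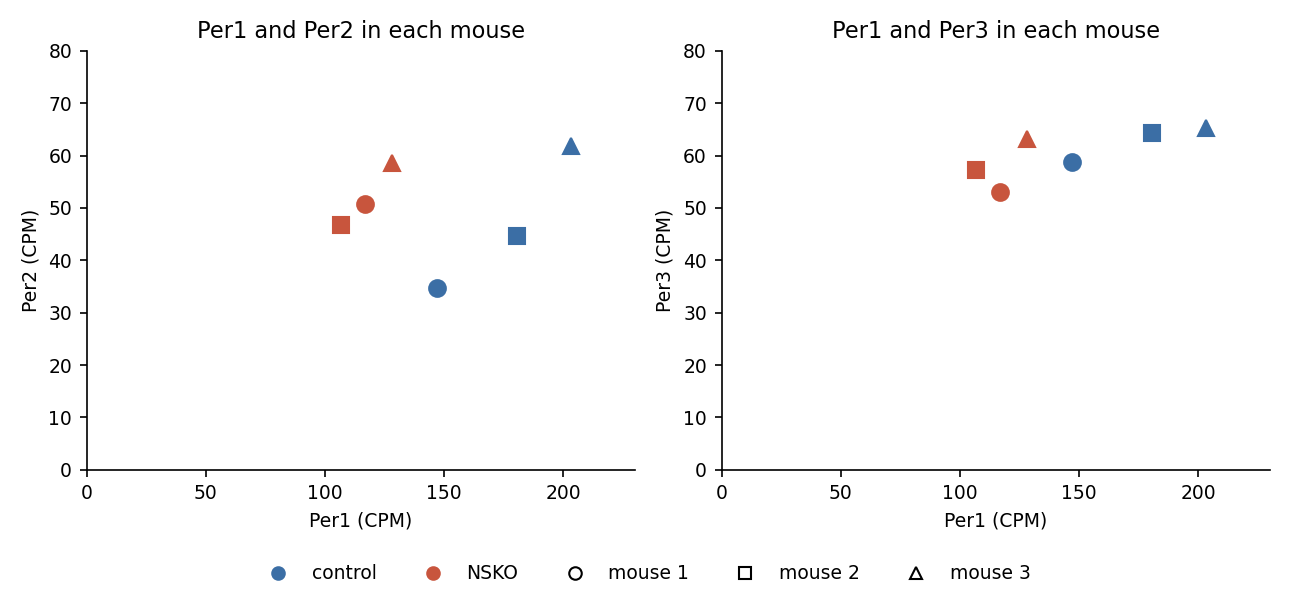
Per1 level (x axis, CPM) against Per2 (left) and Per3 (right, y axes, CPM) in each mouse, with color for genotype and shape for mouse number. At similar Per2 or Per3 levels, the NSKO mice sit to the left of the control mice, their Per1 values of 106.6 to 128.0 CPM lying below the lowest control value of 147.0 CPM.

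In GRCm38, *Per1* spans chr11:69095217-69109960 on the plus strand, *Per3* spans chr4:151003652-151044665 on the minus strand and *Cry1* spans chr10:85131700-85185064 on the minus strand. Their promoters are shown for *Per1*, the gene that passed the threshold, and for *Per3* and *Cry1*, a paralog and another repressor that did not. RefSeq windows of 300 bases (250 before to 50 after a start, GRCm38.p6) were available for 7 of the 8 genes, in 11 windows. Capitals mark the E-box CACGTG, the 5-letter core TGACG of the cAMP-responsive element, and the D-box TTATGTAA, each searched on both strands. The E-box and the full cAMP-responsive element TGACGTCA read the same on both strands, and the core is part of the latter. The first *Per1* window is chr11:69098699-69098998 (plus strand), the second is chr11:69099902-69100201 (plus strand), the *Per3* window is chr4:151044616-151044915 (minus strand) and the *Cry1* window is chr10:85185005-85185304 (minus strand).
Per1 window 1: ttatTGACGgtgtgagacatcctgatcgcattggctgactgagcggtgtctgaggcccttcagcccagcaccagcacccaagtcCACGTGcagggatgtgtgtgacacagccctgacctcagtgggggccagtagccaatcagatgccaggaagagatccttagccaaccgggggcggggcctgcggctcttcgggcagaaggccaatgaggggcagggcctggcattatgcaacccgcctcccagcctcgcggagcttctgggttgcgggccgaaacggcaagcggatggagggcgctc
Per1 window 2: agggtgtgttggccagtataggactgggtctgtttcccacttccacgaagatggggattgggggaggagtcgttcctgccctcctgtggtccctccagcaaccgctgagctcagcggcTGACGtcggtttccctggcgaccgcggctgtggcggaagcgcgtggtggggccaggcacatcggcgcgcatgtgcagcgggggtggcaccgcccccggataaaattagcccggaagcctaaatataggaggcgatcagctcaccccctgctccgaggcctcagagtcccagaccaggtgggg
Per3: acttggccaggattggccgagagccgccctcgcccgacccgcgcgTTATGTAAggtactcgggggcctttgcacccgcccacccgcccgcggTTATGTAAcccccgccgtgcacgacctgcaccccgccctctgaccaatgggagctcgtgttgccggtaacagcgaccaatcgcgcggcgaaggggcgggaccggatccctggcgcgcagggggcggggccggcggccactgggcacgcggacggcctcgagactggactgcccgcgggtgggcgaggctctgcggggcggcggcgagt
Cry1: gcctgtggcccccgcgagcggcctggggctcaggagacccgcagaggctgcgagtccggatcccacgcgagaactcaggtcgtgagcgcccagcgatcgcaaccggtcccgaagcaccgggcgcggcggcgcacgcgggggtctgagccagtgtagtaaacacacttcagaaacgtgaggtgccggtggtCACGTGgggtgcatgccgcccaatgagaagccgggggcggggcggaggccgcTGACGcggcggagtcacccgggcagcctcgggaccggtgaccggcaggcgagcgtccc

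The first *Per1* window held an E-box 166 bases and a TGACG core 246 bases before the start, and the second held a core 132 bases before its start. *Cry1* also had both motifs, an E-box at 60 and a core at 8 bases before the start, and its values are given with the cryptochromes. The *Per3* window held 2 D-boxes, at 205 and 158 bases before the start, and neither of the other motifs. *Cry2* had a TGACG core on the minus strand 209 bases before its start, and the *Arntl*, *Clock* and *Npas2* windows had none of the motifs. The full element TGACGTCA was in no window of the 7 genes. Among all 32851 windows, 7.15% held the E-box, 20.8% the core, 2.11% both of these, 1.79% the full element and 0.938% the D-box. A match describes the letters and not a bound site.

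The cryptochromes, repressors that bind the CLOCK-BMAL1 pair, did not pass the threshold. *Cry1*, the stronger repressor of the pair, was at 43.1, 45.9 and 51.7 CPM in control and 54.9, 47.2 and 49.7 CPM in NSKO mice, and the groups overlapped (log2 fold change 0.11, SE 0.0802, 95% interval −0.06 to 0.29, edgeR adjusted p = 0.994). *Cry2* was at 129.1, 123.1 and 129.0 CPM in control and 123.5, 117.8 and 119.8 CPM in NSKO mice. The ranges overlapped through NSKO mouse 1, which lay just above control mouse 2, and the log2 fold change was −0.08 (SE 0.0523, 95% interval −0.19 to 0.03, edgeR adjusted p = 0.994).

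None of the 3 activators passed the threshold. *Arntl*, which encodes the BMAL1 subunit that no paralog replaces in most tissues, was at 27.0, 29.6 and 27.1 CPM in control and 30.0, 30.4 and 30.5 CPM in NSKO mice. All NSKO mice lay above all control mice, and 5.07% of all genes tested separated in this direction, against 5.26% in the other, which *Per1* did. The log2 fold change of *Arntl* was 0.12 (SE 0.0708, 95% interval −0.03 to 0.28, edgeR adjusted p = 0.974). *Clock*, which encodes the partner of BMAL1 in most tissues, was at 105.8, 94.4 and 92.3 CPM in control and 108.5, 98.0 and 93.6 CPM in NSKO mice. These ranges overlapped, and the log2 fold change was 0.04 (SE 0.0703, 95% interval −0.12 to 0.19, edgeR adjusted p = 0.994). *Npas2*, which encodes the paralog of CLOCK, was counted only 30 to 83 times per mouse, at 2.41, 3.34 and 1.93 CPM in control and 4.16, 1.80 and 2.18 CPM in NSKO mice. NSKO mouse 1 was the highest of the 6 and NSKO mouse 2 the lowest. The log2 fold change was 0.10 (SE 0.313, edgeR adjusted p = 0.994). Its 95% interval of −0.58 to 0.77 reached almost to the estimate for *Per1*, so that changes inside it remain possible. The interval is not a limit of detection.

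**Figure D4:**
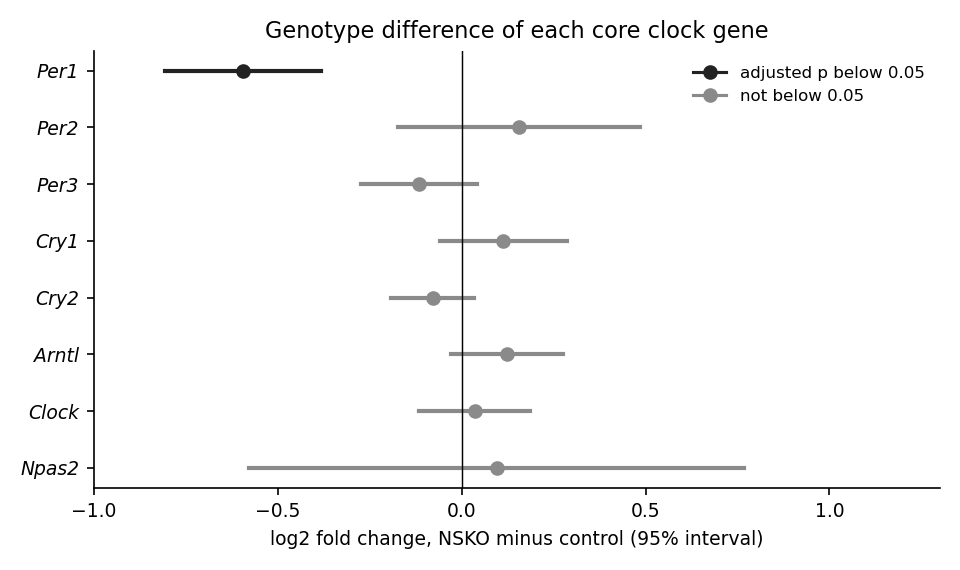
Log2 fold change of the 8 core clock genes (y axis) with its 95% interval (x axis, NSKO minus control), Per1 in black as the gene with an adjusted p below 0.05. The interval of Per1 runs from −0.81 to −0.38, and those of the other 7 genes include 0.

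Over the 8 genes 3 fold changes were negative and 5 positive, with a median of 0.07, and the median over all genes tested was 0.00. In bulk tissue fewer expressing cells and less RNA per cell cannot be told apart. Within the control group, mouse 1 was the lowest and mouse 3 the highest for *Per1*, *Per2*, *Per3* and *Cry1*. Summed markers of Bergmann glia and astrocytes were higher in every NSKO mouse (2339 to 2394 CPM, against 1973 to 2283 in control mice), as were those of microglia (119 to 123, against 102 to 113) and of cardiac muscle (11.7 to 13.5, against 2.03 to 2.92). Taken singly, 3 of 6 glial, 2 of 6 microglial and 3 of 4 tested cardiac markers were higher in every NSKO mouse, against 5.07% of all genes tested. All 6 glial and all 6 microglial fold changes were positive. Of these, 3 glial and 1 microglial marker had an unadjusted p below 0.05 in edgeR's test, and none passed the threshold. None of the 6 glial and 6 microglial markers was at or near 0. Of the 6 cardiac markers 4 were tested, and 3 passed the threshold as higher in NSKO mice (lowest edgeR adjusted p = 0.000629). Over all 16330 genes tested, 4 passed as higher. Cardiac levels were low, with *Myl7* at no more than 3 counts in any mouse and *Nppa* at no more than 12.1. Control means of *Myh6*, *Actc1* and *Tnnt2* were 0.221, 0.427 and 0.546 CPM. Choroid plexus markers had 6 of 6 positive fold changes, 3 of them with an unadjusted p below 0.05 in edgeR's test (5.39% of all genes tested). Their sums overlapped (900 to 1553 CPM in NSKO and 767 to 1109 in control mice). Oligodendrocyte markers had 6 of 6 negative fold changes and sums that overlapped (7585 to 9152 and 8160 to 9290 CPM). The part of these cells in the *Per1* difference was not tested.

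Per length of exon, *Per1* was the most abundant core clock gene in control mice, at 31.4 ± 5.03 CPM per kilobase (SD, n = 3). *Cry2* followed at 20.1 ± 0.546, *Cry1* at 14.0 ± 1.31, *Per2* at 8.02 ± 2.34, *Clock* at 7.10 ± 0.530, *Per3* at 6.53 ± 0.371, *Arntl* at 3.71 ± 0.193 and *Npas2* at 0.534 ± 0.150 CPM per kilobase. In that order only the neighbours *Per2* and *Clock*, and *Clock* and *Per3*, overlapped between mice, and the highest level was 58.8 times the lowest. In NSKO mice *Per1* fell to 20.8 ± 1.90 CPM per kilobase, overlapping *Cry2* at 19.0 ± 0.455, while every other neighbouring pair was separate. The order of the 8 genes was the same in NSKO as in control mice.

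Other genes of the clock pathway showed no change that passed the threshold. Among 13 output factors and interlocking-loop genes, 11 kinases, phosphatases and ubiquitin ligases, and 14 cofactors of the clock complexes, 0 of 38 passed by edgeR's quasi-likelihood test, 5 had an unadjusted p below 0.05 against 5.39% of all genes tested, and DESeq2 likewise called 0. Their median log2 fold change was 0.01, 6 genes were lower in every NSKO mouse (5.26% of all genes tested were) and 2 were higher in every NSKO mouse (5.07% of all were). Of the 6 with the lowest p, *Nfil3*, a repressor of D-box genes, was at 18.5, 25.1 and 22.2 CPM in control and 15.1, 14.2 and 17.0 CPM in NSKO mice. Each NSKO mouse lay below each control mouse, and its log2 fold change was −0.50 (SE 0.115, edgeR adjusted p = 0.228), and without control mouse 1 it was −0.62 with an adjusted p of 0.0309. *Sirt1*, a deacetylase that acts on clock proteins, and *Usp2*, a deubiquitinase of clock proteins, had log2 fold changes of −0.26 (edgeR adjusted p = 0.612) and −0.18 (edgeR adjusted p = 0.640). *Fbxw11*, a ubiquitin ligase subunit that targets PER proteins, had one of 0.16 (edgeR adjusted p = 0.799). *Nr1d1*, which encodes REV-ERBα, and *Bhlhe41*, which encodes DEC2, had −0.15 (edgeR adjusted p = 0.867) and −0.13 (edgeR adjusted p = 0.916).

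**Figure D5:**
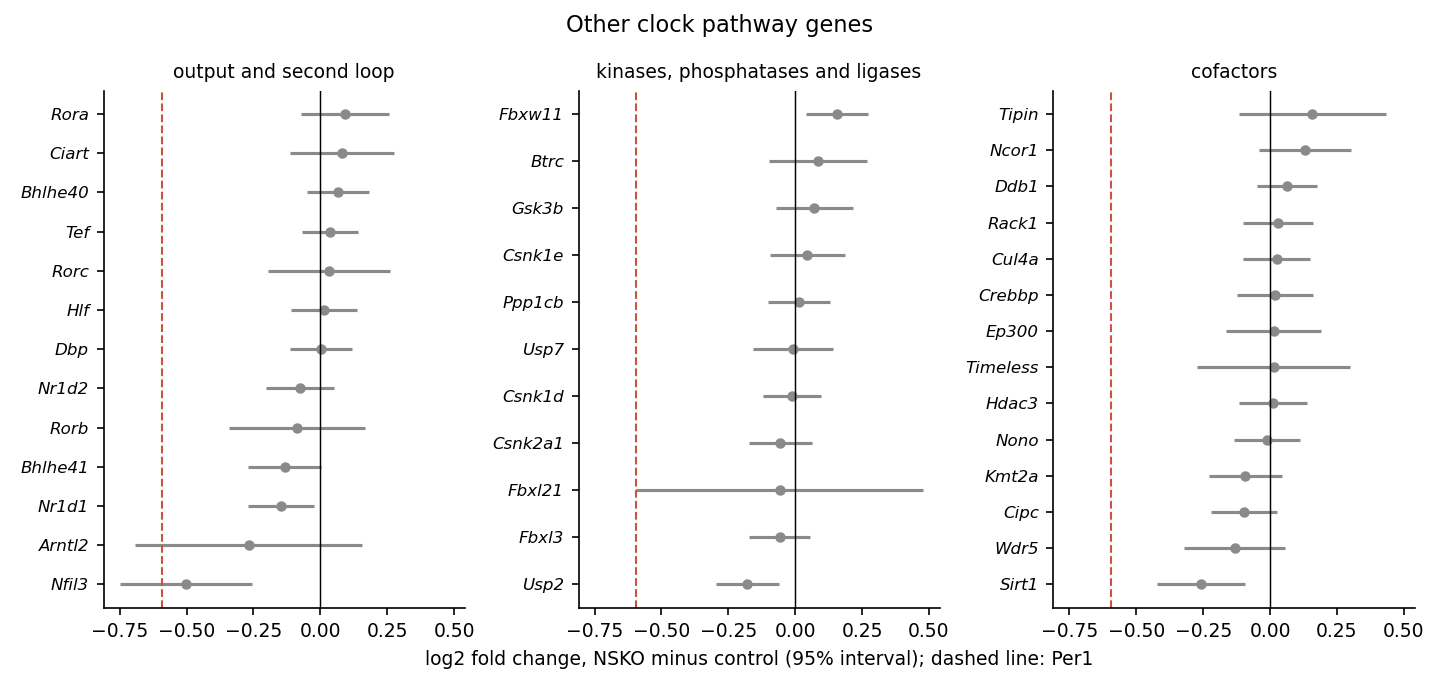
Log2 fold changes (x axis, NSKO minus control, with 95% intervals) of the 38 other clock pathway genes (y axis) in 3 lists, with the Per1 value as a dashed line. None passed the threshold, and Nfil3, at −0.50, has the lowest value.

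A list of 11 E-box and D-box driven genes that usually peak near *Per1* in the day, among them *Dbp*, *Tef*, *Hlf* and *Nr1d1*, held 1 gene past the threshold, *Per1* itself. Including *Per1*, 3 of the 11 had an unadjusted p below 0.05 in edgeR's test (5.39% of all genes tested) and 4 were lower in every NSKO mouse (5.26% of all), while 6 fold changes were negative and 5 positive, with a median of −0.07 on the log2 scale. Of the 5 genes of the opposite arm, namely *Arntl*, *Clock*, *Npas2*, *Nfil3* and *Cry1*, 0 passed. Here 1 fold change was negative and 4 were positive, with a median of 0.10. The negative one was that of *Nfil3*, at −0.50, which alone had an unadjusted p below 0.05 in edgeR's test. *Nfil3* was lower and *Arntl* higher in every NSKO mouse (5.26% and 5.07% of all genes tested).

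*Per1* was also set beside genes induced through the same routes. Of 12 genes induced by cAMP and calcium through CREB, 7 passed the threshold as lower in NSKO mice (0.0735% of all genes tested did) and all 12 fold changes were negative, from −2.65 to −0.33 on the log2 scale with a median of −1.31. Most of these genes were known from earlier work on these samples, so that they are not independent evidence of a direction. The fall of *Per1*, at −0.59, lay within that range and was smaller than the median. Of 10 genes induced by glucocorticoids, 0 passed by edgeR's quasi-likelihood test, and 2 had an unadjusted p below 0.05 in edgeR's test (5.39% of all genes tested). These 2 went opposite ways, *Fkbp5* at a log2 fold change of 0.51 and *Sgk1* at −0.27. The median of the 10 was 0.14. The genotypes overlapped for each of the 10, while 5.26% of all genes tested were lower and 5.07% higher in every NSKO mouse.

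The profile of *Per1* over the 6 mice was compared with that of 16316 other gene symbols by the root mean square difference of mean-centred log2 CPM, as a description. The nearest were *Gm16316* (0.0625), *Dtwd2* (0.0731), *Tdrd6* (0.0796), *Gm38155* (0.0863) and *Etfbkmt* (0.0888), against a median of 0.356 over all. Each had a mean of 0.618 to 3.01 CPM, so that few reads carry these profiles, and none passed the threshold. Restricted to the 10284 genes with a mean of at least 10 CPM, a limit chosen after these values were seen, the nearest were *Rnf122* (0.0928, log2 fold change −0.50, edgeR adjusted p = 0.0453), *Gm42583* (0.0974), *Nab1* (0.107), *Nfil3* (0.110) and *Coq10b* (0.129), so that the clock pathway gene *Nfil3* stood 4th. The other members were farther, *Per3* the nearest at 0.260 and *Per2* at 0.401.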

How the data were processed

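The libraries were from cerebella of 6 male mice, 3 per genotype. The authors deposited 1 table of expected counts, not scaled for depth or transcript length. The submitters' processing notes name FastQC, STAR, RSEM, DESeq2 and the mm10 build without versions, and the paper's methods give oligo-dT cDNA and paired-end reads. The labels name a directional library kit and the paper its undirected form. The strand setting of the counting is not given in the sources used here, so that reads of overlapping antisense genes (*Cry2* and *D930015M05Rik*, *Arntl* and *Gm45355*, *Npas2* and *Gm20428*) may be mixed with those of the named gene. Of 53807 entries, 92 spike-in sequences with 0 to 5 counts in a mouse were left out. No column was left out. Expected counts were rounded and tested in R 4.3.3 with edgeR 4.0.16 (quasi-likelihood, TMM, filterByExpr, Benjamini-Hochberg adjustment over 16330 genes, threshold 0.05), with no covariate. Per-mouse levels are CPM with TMM scaling. Per-length levels use the union of exons in GENCODE M21 (GRCm38), which held 53620 of the genes, 51464 in the same version. Intervals are at 95%. Ratios were tested by exact two-sided permutation over the 6 mice. On data simulated from the observed means and depths, with 200 of 16330 genes changed by a log2 fold change of 1, edgeR recovered 80.5% of them, DESeq2 1.42.0 recovered 79.5% and limma-voom (limma 3.58.1) 79.5%, and of the genes each called 9.04%, 9.14% and 7.56% were false. Genes named are the 8 members, *Slc39a8*, the 6 other clock pathway genes with the lowest p, the 5 genes nearest to *Per1* in profile and defining markers. *Rnf122*, *Gm42583*, *Nab1*, *Coq10b*, *Fkbp5*, *Sgk1* and the genes named as motif, overlap or phase examples were named after values were seen. The members and gene lists were chosen with earlier results of these data known. Alternatives were RLE or library-size normalization, DESeq2, limma-voom, no filter, at least 10 counts in every mouse, the replicate block, and each mouse left out.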

Additional observations from a re-analysis of the deposited data

How the results depend on the processing

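Across the 13 alternatives the log2 fold change of *Per1* kept its sign. It no longer passed the threshold with limma-voom (−0.58), and the 6 fits without a mouse gave −0.71 to −0.48 and 0 to 1 core clock genes past the threshold. With limma-voom 0 core clock genes passed. The count over all genes, 16, was 178 with edgeR and no filter on low counts (27187 genes), 37 with DESeq2, which was also given the 27187 genes and used its own filter, so that tool and filter changed together, and 9 to 38 without a mouse. With the replicate block it was 41, and *Per1* had an adjusted p of 0.00796. Deviations of mice with the same number correlated at r = 0.13, 0.12 and 0.00 for numbers 1 to 3. Numbers 1 and 2 correlated best with their own number and number 3 did not, so that a pairing by number was not settled. The main fit used no block because 1 of the 3 correlations was not above 0.1, a limit that was not itself tested. The count of other clock pathway genes, 0, was 1 with no filter, and 0 to 1 without a mouse (1 without control mouse 1), and this gene was *Nfil3* in both. The other 7 core clock genes passed in 0 of 91 fits, at a lowest adjusted p of 0.5886. Their sign turned in 5 fits without a mouse, in *Per2* without control mouse 1 (range without a mouse −0.032 to 0.40), in *Clock* without control mouse 3 (−0.0010) or NSKO mouse 1 (range −0.026 to 0.10), and in *Npas2* without control mouse 3 (−0.062) or NSKO mouse 1 (range −0.35 to 0.32). None of the causes was tested. *Npas2*, with 30 to 83 counts, had the widest interval, and the parts of depth and of spread between mice in it were not separated. For the others, changes within the intervals given remain possible. The intervals are not limits of detection, since a larger change could also miss the adjusted threshold.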
